A study of Homo sapiens with 9 samples.

Results

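The comparison covered the 3 rescue libraries and the 3 control libraries of a 9-library RNA sequencing series, all from LAPC4 cells at day 30; the 6 were chosen by their titles and were fitted without the 3 libraries labelled as UGT2B28 knockdown. LAPC4 is an established human prostate cancer line that responds to androgens and makes prostate-specific antigen. In the rescue cells, titled KD4OE, UGT2B28 was overexpressed in cells labelled as knockdown, and 1 mg/mL G418 is given as their selection drug. UGT2B28 mRNA did not bear out that label: on one scale over all 9 libraries, the libraries labelled knockdown were at 8.48, 6.18 and 3.05 CPM (counts per 1000000, scaled by TMM factors) and the controls at 5.12, 5.10 and 7.80 CPM, so the groups overlapped. The control cells were titled NT, and no drug is stated for them, while 3 ug/mL puromycin is stated for the knockdown-labelled cells on which the rescue was built. Effects of G418, of puromycin, of the knockdown construct and of UGT2B28 therefore cannot be told apart in this comparison. All groups were kept in medium with 15% fetal bovine serum. The labels do not say whether the 3 libraries of a group were separate cultures or how many clones they came from, and the p-values below reflect the spread from library to library, which may be technical.

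The product of UGT2B28 is a UDP-glucuronosyltransferase. It sits in the membrane of the endoplasmic reticulum and joins glucuronic acid from UDP-glucuronic acid to steroids, androgens among them. The conjugates are water-soluble and no longer act as hormones. In prostate cells this family, with UGT2B15 and UGT2B17 as its best known members, is regarded as the main route by which androgens are inactivated. Androgens drive the kallikrein genes and many lipid and transport genes, while growth factor receptors act through the ERK kinases on immediate early genes such as EGR1 and FOS. The comparison asks how cells with raised UGT2B28 differed from control cells in these and other programmes.

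Gene counts summed to 8132206 to 9410048 per control library and to 9791044 to 13983102 per rescue library. No pair of libraries within a group was as alike as sampling noise alone would make it, with a chi-square per degree of freedom of 2.15 or more. Controls 1 and 2 were the closest pair, and control 3 stood apart from every other library on the second principal component (18.8% of the variance), while the first (41%) separated the groups. Mitochondrially encoded mRNAs took 6.04% to 6.90% of the counts in control and 4.41% to 6.18% in rescue (exact two-sided permutation test p = 0.2, 0.1 being the smallest this design allows). Cytosolic ribosomal protein mRNAs took 7.96% to 8.21% and 6.83% to 7.80% (exact p = 0.1, 0.233 after Benjamini-Hochberg adjustment over 7 library measures). All 10 luminal prostate markers were present in every group, with summed levels of 5177 to 6249 CPM in control and 6034 to 7079 in rescue. The basal marker TP63 had at most 2 counts, but KRT15, another basal marker, was at 53.3, 51.0 and 96.1 CPM in control. In rescue KRT15 was at 77.1, 98.4 and 98.4 CPM. The 4 basal markers summed to 52.08 to 98.13 CPM in control and 79.15 to 100.5 CPM in rescue. The leukocyte marker PTPRC had 0 counts in all 6 libraries. The 4 leukocyte markers summed to 0.325 to 1.84 CPM in control and 0.650 to 2.24 CPM in rescue. Markers of stroma summed to 24.5 to 81.8 CPM in control and 56.9 to 150 CPM in rescue, with COL1A1 at 18.3, 15.2 and 52.4 CPM in control and at 20.9, 33.0 and 81.3 CPM in rescue.

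UGT2B28 itself was 12.3-fold higher in the rescue libraries. The gene lies on chromosome 4 at 69280499 to 69295050, plus strand (GRCh38). It stood at 5.43, 5.41 and 8.23 CPM in the controls and at 79.8, 98.7 and 56.8 CPM in the rescue libraries, so the lowest rescue library lay far above the highest control. The log2 fold change was 3.62 (SE 0.209, adjusted p = 5.19e-07, edgeR quasi-likelihood test). Reads of the introduced copy and of the chromosomal gene are counted together here. In bulk RNA, more cells expressing a gene and more RNA per cell cannot be told apart, and this holds for every gene below.

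Of 7 other tested genes of the family and of UDP-glucuronic acid supply, 0 rose and 2 fell. Of all tested genes, 3.92% rose and 1.95% fell. UGT2B11, a paralog, fell from 51.9, 49.2 and 68.8 CPM to 36.6, 36.3 and 19.7 CPM (log2 fold change -0.86, SE 0.189, adjusted p = 0.0149), although the DESeq2 adjusted p was 0.0687. The 2 transcripts share few exact sequences: 17 of 1734 runs of 100 bases (0.98%) and 0 of 1684 runs of 150 bases in UGT2B28 matched UGT2B11. UGT8, which makes galactosylceramide, passed at -1.11 (adjusted p = 0.0486) but missed the threshold without any given library, with adjusted p from 0.0561 to 0.211. UGDH, which makes UDP-glucuronic acid, was at -0.21 (adjusted p = 0.185). UGT2B17 had 0 counts, and UGT2B4, UGT2B7 and UGT2B10 had at most 3 in a library. Of the 9 tested steroid enzymes, none passed, against 5.87% of all tested genes in either direction. The steroid sulfatase gene STS was at 1.04 (1.36, 1.30 and 1.73 CPM against 2.94, 2.88 and 3.27, adjusted p = 0.0952).

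**Figure D1:**
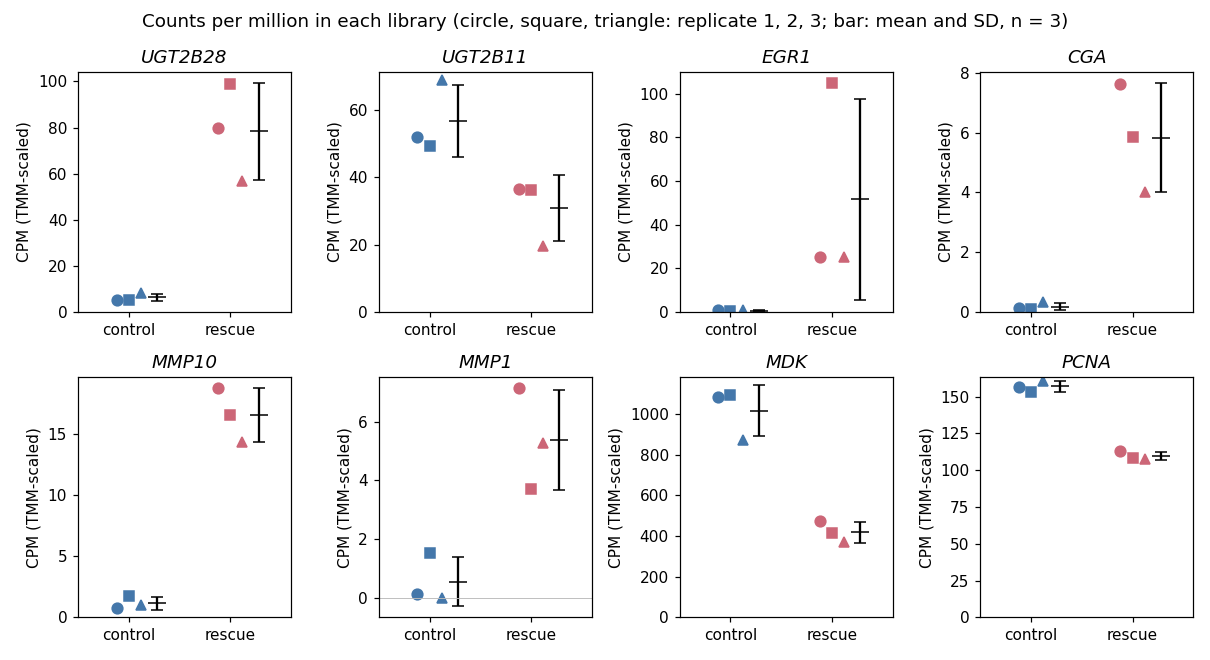
CPM of 8 genes in each of the 6 libraries (vertical axes, linear), with the mean and SD of 3 libraries beside them. UGT2B28, EGR1, CGA, MMP10 and MMP1 lie higher in every rescue library than in any control, UGT2B11, MDK and PCNA lower, and EGR1 in rescue replicate 2 lies apart at 105 CPM.

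Of 16393 tested genes, 962 passed (5.87%), 642 of them higher (3.92%) and 320 lower (1.95%) in rescue. At least a 2-fold change was reached by 199 of the higher genes and 43 of the lower genes. The median log2 fold change of all tested genes was -0.0038. The shares of 3.92% and 1.95% are the background for every count of list members below. The count moved with the control libraries used. It was 274 without control replicate 1, 278 without control replicate 2 and 1302 without control replicate 3. With the 3 knockdown-labelled libraries added to the fit, whose spread is larger, 25 genes passed, and all 25 were among the 962.

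**Figure D2:**
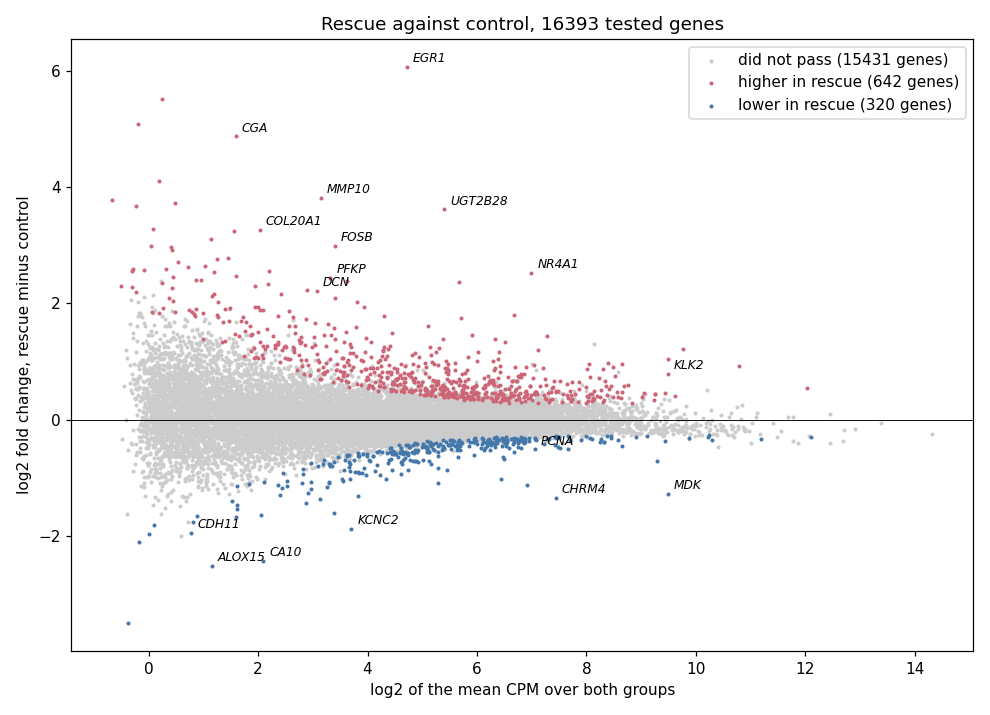
Log2 fold change of rescue minus control (vertical axis) against the log2 of mean CPM (horizontal axis) for the 16393 tested genes, 1 point a gene. The 642 higher genes reach up to 6.08 for EGR1 among the labelled genes, while MDK and CHRM4 stand out among the well-expressed genes that fell.

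EGR1, CGA and MMP10 were the largest rises that stayed called in every alternative fit. Upstream sequences were planned for these genes and for UGT2B28 and MDK, which had no promoter entry. The planned sequences with an entry are shown, and each held a motif match. Each is the 250 bases before the RefSeq start site (GRCh38.p14), with exact motif matches in capitals. EGR1 (chr5:138465229-138465478, plus strand) holds a site for its own protein (GCGNGGGCG, at -198 to -190) and a pair of CArG boxes, the element bound by serum response factor, at -105 to -96 and -83 to -74. MMP10 (chr11:102780629-102780878, minus strand) holds an AP-1 site (TGANTCA) at -67 to -61. CGA (chr6:87095107-87095356, minus strand) holds 2 cAMP response elements (TGACGTCA) at -142 to -135 and -124 to -117.
EGR1: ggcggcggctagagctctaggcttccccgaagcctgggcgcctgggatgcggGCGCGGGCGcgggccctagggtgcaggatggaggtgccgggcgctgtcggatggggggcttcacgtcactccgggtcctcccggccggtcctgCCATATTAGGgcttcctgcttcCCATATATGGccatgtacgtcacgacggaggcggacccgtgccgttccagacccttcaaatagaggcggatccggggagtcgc
MMP10: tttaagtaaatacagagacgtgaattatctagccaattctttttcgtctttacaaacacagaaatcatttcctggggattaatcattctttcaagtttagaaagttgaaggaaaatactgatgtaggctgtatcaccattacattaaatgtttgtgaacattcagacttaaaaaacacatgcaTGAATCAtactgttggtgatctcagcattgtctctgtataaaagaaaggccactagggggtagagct
CGA: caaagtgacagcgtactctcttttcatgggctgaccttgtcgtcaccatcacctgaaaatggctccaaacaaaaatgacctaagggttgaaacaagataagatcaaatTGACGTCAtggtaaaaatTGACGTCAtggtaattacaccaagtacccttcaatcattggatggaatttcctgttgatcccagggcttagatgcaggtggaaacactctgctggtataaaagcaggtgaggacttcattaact
All 35116 promoters were searched on both strands over the same 250 bases before the start. These motifs occur in 8.41% (EGR1 site), 1.16% (CArG box), 6.57% (AP-1 site) and 1.65% (cAMP response element). The same windows of FOSB and NR4A1, 2 other genes that rose, were searched and hold no match. Of the 13 immediate early factors that rose, EGR1 among them, 2 hold a CArG box, 1 a cAMP response element and 0 an AP-1 site. A match is a description of the sequence only.

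Among transcription factors, EGR1 had the largest rise of all. This zinc finger factor is made within minutes of growth factor stimulation. It stood at 0.863, 0.650 and 0.758 CPM in control and at 25.4, 105 and 25.1 CPM in rescue (log2 fold change 6.08, SE 0.659, adjusted p = 0.00014). FOSB, a subunit of AP-1, went from 3.45, 2.17 and 1.52 CPM to 8.83, 37.3 and 10.2 CPM (2.99, SE 0.514, adjusted p = 0.00385). Both genes were highest in rescue replicate 2. The rule that named the largest rises and falls required no overlap between groups. POU4F1, a neuronal homeodomain factor, went from 0.366 ± 0.266 to 2.53 ± 0.208 CPM (SD, n = 3; 2.71, adjusted p = 0.00715), and its adjusted p was 0.0518 without control replicate 1.

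Secreted proteins made up much of the rest of the largest rises. CGA encodes the alpha subunit shared by the glycoprotein hormones, and its counts were 1, 1 and 3 in control against 109, 63 and 38 in rescue. In CPM this was 0.123, 0.108 and 0.325 against 7.63, 5.85 and 4.0 (4.88, SE 0.51, adjusted p = 0.000109). The hormone beta subunits did not accompany it: CGB3, CGB7 and CGB8 had 0 counts, CGB5 had 1, and LHB was at -0.32 (adjusted p = 0.758). CXCL13, a chemokine that attracts B cells, had 3 counts over the control libraries and 72 over the rescue libraries, a ratio of 18.5 with a 95% counting interval of 6.07 to 91.7.

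The stromelysin gene MMP10 rose from 0.740, 1.73 and 0.975 CPM to 18.7, 16.5 and 14.3 CPM (3.82, SE 0.277, adjusted p = 3.17e-06). The interstitial collagenase gene MMP1, its neighbour on chromosome 11, went from 0.123, 1.52 and 0 CPM to 7.14, 3.72 and 5.27 CPM (3.24, SE 0.645, adjusted p = 0.00874), but missed the threshold in DESeq2 (adjusted p = 0.143) and without control replicate 1 (0.0531). These were the 2 of 11 tested matrix metalloproteinases and inhibitors that passed. MMP13 was at 0.78, MMP14 at -0.14, MMP15 at -0.14, and MMP11, a stromelysin with another substrate range, at -0.50 (adjusted p = 0.0882). TIMP1, an inhibitor, was at 0.493, 1.19 and 1.52 CPM in control and 0.770, 1.21 and 7.58 CPM in rescue, and its log2 fold change of 1.49 rests on rescue replicate 3. COL20A1, a collagen chain, rose from 0.762 ± 0.223 to 7.38 ± 2.55 CPM (SD, n = 3; 3.26, adjusted p = 0.000261).

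The remaining large rises included a channel, metabolic and trafficking genes and X-linked germline genes. RYR2, a calcium release channel of the endoplasmic reticulum, rose by 2.78, the cytochrome P450 gene CYP2E1 by 2.92 and the small GTPase gene RAB31 by 2.64. MAGEC2, a cancer-testis antigen on chromosome X, went from 0.180 ± 0.313 to 2.62 ± 0.417 CPM (SD, n = 3; 3.72, adjusted p = 0.00741). VCX3B, also X-linked, was at 2.77 (adjusted p = 0.00303), but near-identical VCX copies may share its reads. All of these genes were under 8 CPM in the rescue libraries except UGT2B28, EGR1, FOSB, MMP10 and COL20A1, so their fold changes rest on few reads.

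MDK and CHRM4 fell among well-expressed genes. MDK encodes midkine, a heparin-binding growth factor, on chromosome 11 at 46380756 to 46383837. Its level went from 1083, 1095 and 872 CPM to 472, 413 and 371 CPM (log2 fold change -1.28, SE 0.107, adjusted p = 1.32e-05). CHRM4, a muscarinic acetylcholine receptor gene that lies 1260 bases from MDK on the opposite strand, went from 257, 262 and 228 CPM to 104, 103 and 85.7 CPM (-1.35, SE 0.0947, adjusted p = 2.96e-06). The ranges of neither gene overlapped between groups, which the naming rule required. The strand setting of the counting is not known here, and the part of reads from beyond the end of MDK in the CHRM4 count was not tested.

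The other large falls were in less abundant genes. ALOX15, a lipoxygenase of arachidonic and linoleic acid, went from 3.81 ± 1.39 to 0.646 ± 0.188 CPM (SD, n = 3; -2.52, adjusted p = 0.00433). CA10, a carbonic anhydrase-related protein gene, went from 7.25 ± 2.05 to 1.30 ± 0.623 CPM (-2.43, adjusted p = 0.00203). The potassium channel gene KCNC2 went from 20.4 ± 1.36 to 5.64 ± 1.87 CPM (-1.88, adjusted p = 0.000184), with 35.5% of its exon length shared with another gene. CXXC5, a zinc finger protein gene, fell by 1.32, the actin-associated adaptor gene AFAP1L2 by 1.44 and the ubiquitin ligase gene TRIM2 by 1.27 on the log2 scale. Further falls were MARK1, a microtubule kinase (-1.64), the beta-defensin DEFB1 (-1.47), C14orf132 (-1.68), SOBP (-1.20), UMODL1 (-1.18) and the fatty acid hydroxylase CYP4V2 (-1.15). Of the 15 largest falls, 8 missed the threshold without at least 1 of the libraries, against 2 of the 15 largest rises. The 8 were CDH11, TRIM2 and the 6 further falls just named, and all 8 missed it without control replicate 1, with adjusted p from 0.0547 for TRIM2 to 0.191 for CYP4V2.

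**Figure D3:**
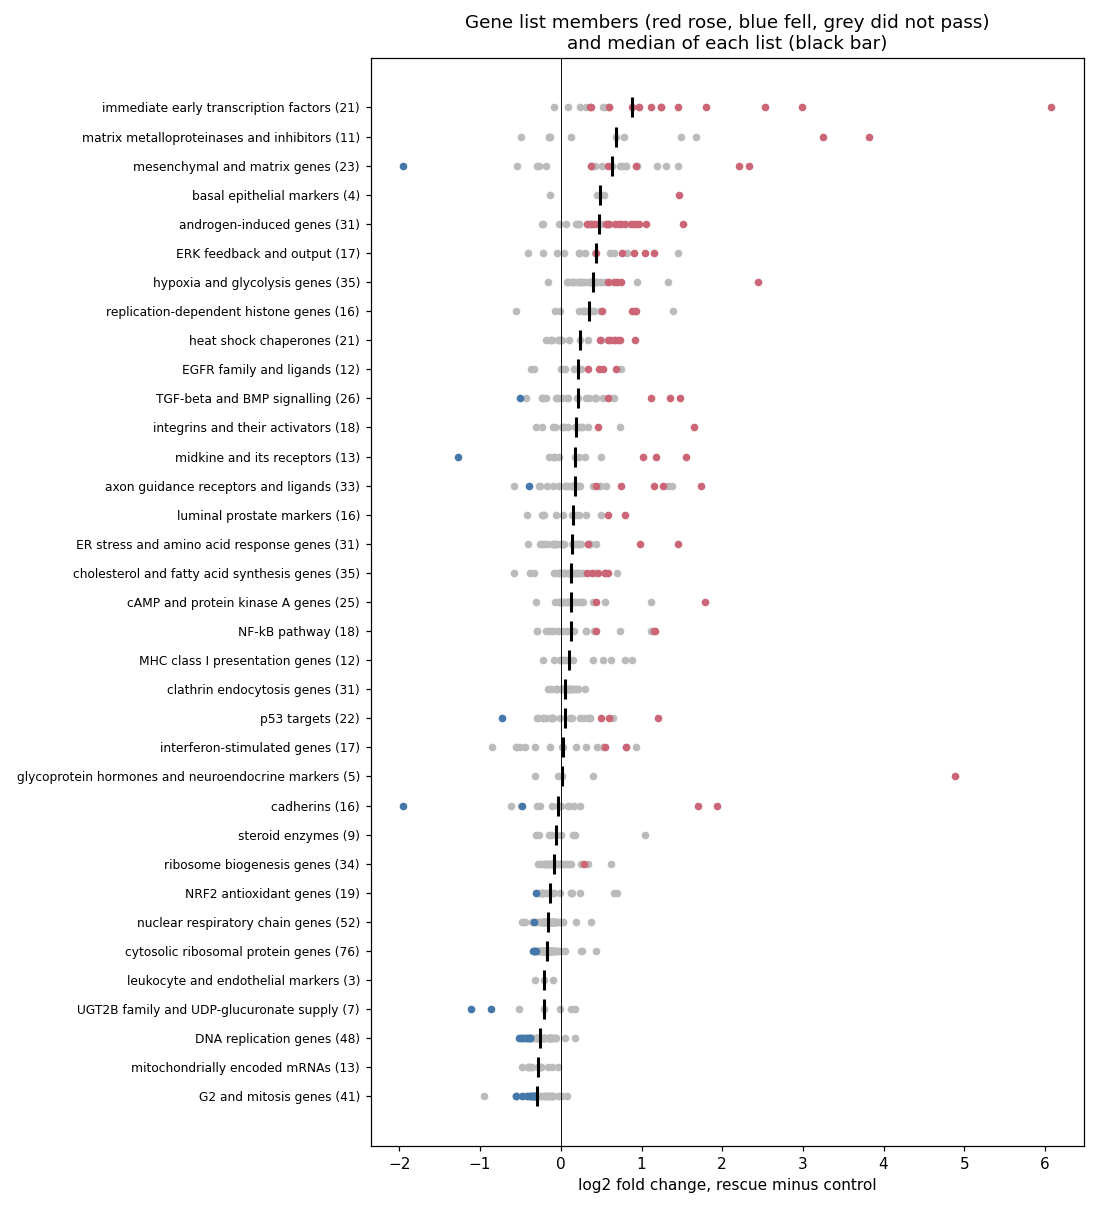
Log2 fold change of rescue minus control (horizontal axis) for every tested member of the 35 gene lists, with the number tested in brackets, ordered by the list median. Immediate early factors lie at the top with a median of 0.88, and DNA replication, mitochondrial and mitosis genes lie at the bottom.

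Most of the immediate early transcription factors rose. Of 21 tested, 13 rose and 0 fell, against 3.92% and 1.95% of all genes, with 20 of 21 log2 fold changes above 0, and the median was 0.88. NR4A1, an orphan nuclear receptor, went from 31.3, 33.6 and 47.7 CPM to 107, 379 and 167 CPM (2.53, SE 0.336, adjusted p = 0.00069). FOS went from 34.4, 28.1 and 74.7 CPM to 88.3, 277 and 113 CPM (1.79, adjusted p = 0.0112), and ATF3, a stress-induced factor, from 30.6, 28.6 and 36.7 CPM to 56.7, 141 and 64.9 CPM (1.45, adjusted p = 0.00479). FOSL2 (1.25), KLF2 (1.24), KLF6 (1.11), the RNA-binding ZFP36 (0.96), JUNB (0.88), JUND (0.60), SRF (0.37) and IER5 (0.37) also rose. Rescue replicate 2 was the highest library, with a list median of 1.22 over the control mean, against 0.46 and 0.71 in rescue replicates 1 and 3. The number that rose was 9 without rescue replicate 2, 6 without control replicate 1 and 8 without control replicate 2.

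Some genes that carry or restrain ERK signalling, and some of the EGF receptor family, rose by smaller amounts. In the list of ERK feedback and output, 5 of 17 rose and 0 fell (median 0.44). The phosphatase gene DUSP4 went from 415, 403 and 593 CPM to 762, 1247 and 907 CPM (1.05, SE 0.164, adjusted p = 0.00219), and the phosphatase genes DUSP2 (0.91) and DUSP5 (0.76) and the ephrin receptors EPHA4 (1.15) and EPHA2 (0.44) rose as well. In the EGFR family list, 4 of 12 rose and 0 fell (median 0.21). EGFR went from 49.5, 53.1 and 71.7 CPM to 92.0, 95.2 and 92.1 CPM (0.68, SE 0.118, adjusted p = 0.00412), and ERBB2 rose by 0.33. The ubiquitin ligase gene CBL (0.47) and the receptor inhibitor gene ERRFI1 (0.52), which both restrain the receptor, rose too. Of the ERK list, 3 rose without control replicate 1 and 3 without rescue replicate 2. Of the EGFR family list, 1 rose without control replicate 1, 1 without control replicate 2 and 2 without rescue replicate 1.

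Androgen-induced genes were higher in rescue. Of 31 tested, 16 rose and 0 fell, and 28 were positive, with a median of 0.47. PMEPA1, an inhibitor of TGF-beta signalling, went from 203, 211 and 274 CPM to 380, 461 and 502 CPM (0.97, SE 0.12, adjusted p = 0.000405). The lipid hydrolase gene ABHD2 (0.87), ZBTB16 (0.90), the elongation factor gene ELL2 (0.72), the prostaglandin receptor gene PTGER4 (0.94), TSC22D3 (0.57), FKBP5, a chaperone of steroid receptors (0.43), and the metalloreductase gene STEAP4 (1.52) rose as well. KLK2, a prostate kallikrein, went from 483, 442 and 652 CPM to 712, 867 and 1153 CPM (0.79, SE 0.158, adjusted p = 0.00874), and the membrane protease gene TMPRSS2 rose by 0.58. KLK3, which encodes prostate-specific antigen, was at 830, 825 and 1268 CPM in control and 1180, 1414 and 1544 CPM in rescue (0.50, adjusted p = 0.0545), and its groups overlapped. Control 3 was the highest control for KLK2, KLK3 and PMEPA1, and 8 androgen-induced genes rose without control replicate 1 and 8 without control replicate 2. Neither KLK2 nor TMPRSS2 passed in either of those fits.

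Some genes of DNA replication and of mitosis fell, by small amounts. Of 48 tested replication genes, 9 fell and 0 rose, against 1.95% and 3.92% of all genes, and 2 lay above 0 (median -0.26). PCNA, the sliding clamp of DNA polymerases, went from 157, 153 and 161 CPM to 113, 109 and 108 CPM (-0.52, SE 0.077, adjusted p = 0.00165). The helicase subunits MCM3 (-0.48), MCM5 (-0.46) and MCM2 (-0.39), the maintenance methylation factor UHRF1 (-0.49), the licensing factors CDC6 (-0.43) and CDT1 (-0.42), the histone chaperone subunit CHAF1B (-0.38) and the cyclin CCNE2 (-0.38) fell. Of 41 G2 and mitosis genes, 11 fell and 0 rose, with 2 positive (median -0.30). NDC80, of the kinetochore, went from 48.0, 48.5 and 43.4 CPM to 34.8, 28.1 and 32.4 CPM (-0.55, adjusted p = 0.0101), and the kinases TTK (-0.55), AURKB (-0.42) and PLK1 (-0.39), the cyclin CCNB1 (-0.34) and the transcription factor FOXM1 (-0.37) fell. The proliferation marker MKI67 was at -0.01 (adjusted p = 0.957). Without control replicate 1 the falls were 2 replication and 0 mitosis genes, without control replicate 2 they were 3 and 0, and without control replicate 3 they were 10 and 14. The mitosis falls were 4 without rescue replicate 2, and the replication falls 5 without rescue replicate 3.

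Among replication-dependent histone genes, whose mRNAs mostly lack a poly(A) tail, 4 of 16 tested rose and 0 fell (median 0.35). H1-2, a linker histone, went from 85.7, 85.6 and 101 CPM to 121, 158 and 242 CPM (0.93, SE 0.18, adjusted p = 0.00755), and H2BC21 (0.92), H4C8 (0.89) and H2BC12 (0.51) rose. Near-identical histone copies may share reads, and 1 histone gene rose without control replicate 1, 1 without control replicate 2 and 2 without rescue replicate 2.

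**Figure D4:**
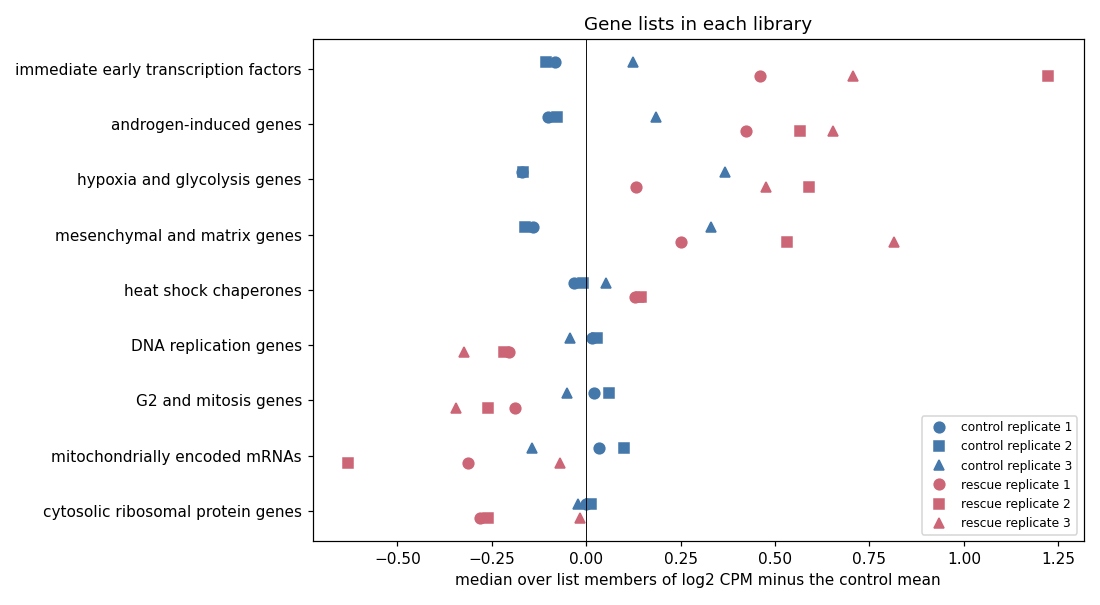
Median over the members of 9 gene lists of log2 CPM minus the control mean (horizontal axis), 1 symbol a library. The rescue libraries lie right of all controls for the immediate early and androgen-induced lists and left of them for the replication and mitosis lists, while control replicate 3 lies among the rescue libraries for hypoxia and mesenchymal genes.

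Of the mitochondrially encoded, nuclear respiratory and ribosomal protein lists, 0 of 13, 1 of 52 and 4 of 76 members fell, against 1.95% of all genes. None of the 13 mitochondrially encoded mRNAs passed, and none lay above 0 (median -0.28). The list median relative to the control mean was -0.31, -0.63 and -0.07 in rescue replicates 1, 2 and 3. MT-ND5, a complex I subunit, was at 3999, 4088 and 3783 CPM in control and 2775, 2605 and 3772 CPM in rescue (-0.38, adjusted p = 0.0707). Of 52 nuclear respiratory chain genes, COX7C fell (-0.34, adjusted p = 0.0342) and 4 were positive (median -0.16). Of 76 cytosolic ribosomal protein genes, 4 fell, RPL10A, RPL22, RPS2 and RPS18 (-0.32, -0.34, -0.31 and -0.33), 0 rose and 5 were positive (median -0.17). Without rescue replicate 3, 10 mitochondrial, 6 nuclear respiratory and 44 ribosomal protein mRNAs fell. Without control replicate 1, control replicate 2 or rescue replicate 1, 0 of any of these lists did. Without control replicate 3, 6 mitochondrial and 4 nuclear respiratory mRNAs fell. Without rescue replicate 2 the falls were 0, 0 and 2. Ribosomal protein genes have many processed pseudogenes that may take some of their reads.

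Hypoxia and glycolysis genes were nearly all on the higher side, with control replicate 3 on that side too. Of 35 tested, 34 were positive (median 0.40), 5 rose and 0 fell. PFKP, the platelet form of phosphofructokinase, went from 1.73, 1.52 and 5.96 CPM to 18.3, 11.2 and 21.2 CPM (2.44, SE 0.379, adjusted p = 0.00214). The hexokinase gene HK2 (0.66), the glycolytic regulator gene PFKFB3 (0.70), the collagen prolyl hydroxylase gene P4HA1 (0.58) and NDRG1 (0.75) rose. The list median relative to the control mean was 0.37 in control replicate 3 and 0.13, 0.59 and 0.48 in the rescue libraries. Without control replicate 3 the number that rose was 26, it was 8 without rescue replicate 1, and it was 2 without control replicate 1, control replicate 2 or rescue replicate 2.

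In lipid synthesis, 6 of 35 cholesterol and fatty acid genes rose and 0 fell (median 0.13). FASN, the fatty acid synthase, went from 3052, 3052 and 4089 CPM to 4751, 5270 and 4900 CPM (0.55, SE 0.108, adjusted p = 0.00821). The sterol pathway genes IDI1 (0.58) and SC5D (0.47), the phosphatidate phosphatase gene LPIN1 (0.54) and INSIG1, which holds back sterol synthesis (0.33), rose. Without control replicate 1 the number was 2, and without control replicate 2 it was 1.

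Heat shock chaperones rose in 8 of 21 cases and fell in 0 (median 0.24). The co-chaperone DNAJB1 went from 227, 217 and 238 CPM to 347, 385 and 384 CPM (0.71, SE 0.0807, adjusted p = 0.000182). HSPH1 (0.66), DNAJB4 (0.92), HSPB1 (0.73), HSPA8 (0.58), BAG3 (0.49) and the near-identical pair HSPA1A (0.67) and HSPA1B (0.61), whose reads cannot be told apart with certainty, also rose. Of 31 genes of the ER stress and amino acid response, 3 rose, PPP1R15A, which helps reverse the translation block of that response (0.98, adjusted p = 0.000451), ATF3, named above, and CANX, a lectin chaperone (0.33). Of 22 p53 targets, GDF15 (1.21), TNFRSF10B (0.50) and BBC3 (0.60) rose and SESN1 fell (-0.73). GDF15, a secreted stress cytokine, was at 353, 353 and 870 CPM in control and 774, 1288 and 1586 CPM in rescue, so its groups overlapped. PRDX1, a peroxiredoxin, fell (-0.30, adjusted p = 0.0327) as the 1 gene of 19 in the NRF2 list that passed. The chaperone count was 3 without control replicate 1 and 4 without control replicate 2. No p53 target rose without control replicate 1, control replicate 2 or rescue replicate 2, and 1 did without rescue replicate 3, while SESN1 fell in each of these fits. PRDX1 did not pass without control replicate 1, control replicate 2, rescue replicate 1 or rescue replicate 2. The ER stress rises were 7 without control replicate 3 and 4 without rescue replicate 3. They were 2 without control replicate 1, control replicate 2, rescue replicate 1 or rescue replicate 2.

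Genes of adhesion and matrix held both rises and falls. Of 23 mesenchymal and matrix genes, 5 rose and 1 fell (median 0.63). The small proteoglycan genes DCN and LUM, neighbours on chromosome 12, went from 2.84, 3.68 and 2.38 CPM to 14.8, 13.1 and 13.5 CPM (2.21, SE 0.222, adjusted p = 7.01e-05) and from 1.23, 0.866 and 2.38 CPM to 9.95, 6.60 and 6.11 CPM (2.33, SE 0.361, adjusted p = 0.00211). FN1, which encodes fibronectin, went from 53.5, 55.9 and 67.6 CPM to 115, 121 and 102 CPM (0.93, SE 0.104, adjusted p = 0.000178), and TAGLN (0.58) and COL6A1 (0.38) rose. CDH11, a cadherin of mesenchymal cells, fell (-1.95, adjusted p = 0.0121). The fibrillar collagen genes COL1A1 and COL1A2 did not separate the groups: COL1A2 was at 0.370, 0.650 and 8.02 CPM in control and 1.68, 6.13 and 18.2 CPM in rescue. Both were high in control replicate 3 and in rescue replicate 3, as the sum of the stroma markers was. Among the rescue libraries, DCN and LUM were highest in replicate 1, where the stroma sum was lowest. That sum includes DCN and LUM, and COL1A1 is its largest part. The part of other cells in these results was not tested. Without control replicate 3, 13 of the list rose, and 3 without control replicate 2. CDH11 did not pass without control replicate 1 (adjusted p = 0.0801) or 2 (0.0641).

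Cadherins and guidance receptors changed member by member. Of 16 tested cadherins, 2 rose and 2 fell (median -0.03). CDH6, a cadherin of developing kidney and some tumours, went from 8.02, 5.74 and 5.52 CPM to 33.1, 22.5 and 17.5 CPM (1.94, SE 0.234, adjusted p = 0.000281), and CDHR5 rose (1.70), whereas CDH3, the P-cadherin gene, fell (-0.49, adjusted p = 0.00445) beside CDH11. Of 33 axon guidance genes, 5 rose and 1 fell. The SLIT receptor ROBO2 went from 2.34, 3.90 and 3.90 CPM to 13.1, 11.1 and 9.90 CPM (1.74, SE 0.244, adjusted p = 0.00101), SEMA3A (0.74) and UNC5B (1.27) rose, and EFNA4 fell (-0.40). FERMT2, the kindlin that activates integrins, went from 4.19, 5.52 and 4.44 CPM to 18.7, 12 and 13.6 CPM (1.65, SE 0.223, adjusted p = 0.00077), and the integrin subunit gene ITGAV rose (0.46), as 2 of 18 in that list. The PKA-anchoring scaffold AKAP12 went from 6.66, 5.63 and 14.1 CPM to 21.6, 29.3 and 41.4 CPM (1.79, SE 0.287, adjusted p = 0.00241), and AKAP13 rose by 0.43. They were the 2 of 25 tested cAMP and protein kinase A genes that passed (median 0.12). Without control replicate 1 the guidance list held 2 rises and 0 falls, without control replicate 2 it held 3 and 0, without rescue replicate 1 it held 3 and 1, and without rescue replicate 2 it held 4 and 0. The cadherin list held 1 rise without control replicate 1, control replicate 3, rescue replicate 2 or rescue replicate 3, and 1 fall without control replicate 1 or 2. The integrin list held 1 rise without control replicate 1, control replicate 2, rescue replicate 1 or rescue replicate 2, and the protein kinase A list 1 without control replicate 1, control replicate 2 or rescue replicate 2.

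Midkine and its receptors did not move together. Beside the fall of MDK, its relative PTN, which encodes pleiotrophin, went from 2.10, 3.03 and 1.62 CPM to 4.55, 7.34 and 8.22 CPM (1.55, SE 0.329, adjusted p = 0.0123). Of the receptors, LRP1 went from 10.9, 9.09 and 15.5 CPM to 27.1, 25.6 and 27.8 CPM (1.18, SE 0.173, adjusted p = 0.00139) and PTPRB rose (1.01), while NOTCH2 was at 0.30 (adjusted p = 0.0574), SDC4 at 0.23, NCL at -0.15 and SDC1 at -0.02. Without rescue replicate 3, 5 of this list rose, and 4 did without control replicate 3. The number was 2 without control replicate 1, control replicate 2, rescue replicate 1 or rescue replicate 2.

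In the NF-kB list, 3 of 18 rose and 0 fell. MAP3K14, the kinase that starts the noncanonical pathway, went from 36.0, 43.8 and 39.0 CPM to 91.3, 79.2 and 97.1 CPM (1.17, SE 0.106, adjusted p = 2.79e-05). TNFRSF12A, the TWEAK receptor upstream of it, went from 51.6, 54.8 and 50.5 CPM to 114, 107 and 129 CPM (1.16, SE 0.0934, adjusted p = 8.71e-06), and NFKB2, the precursor processed in that pathway, rose by 0.44. Without control replicate 3, 5 of the list rose, and 2 did without control replicate 1 or control replicate 2. In the TGF-beta and BMP list, the receptor gene TGFBR2 (1.48), the ligand genes TGFB2 (1.12) and INHBB (1.35) and the decoy receptor gene BAMBI (0.59) rose, and ID4 fell (-0.51). That was 4 rises and 1 fall among 26, and none of these passed without control replicate 1 or without control replicate 2, while 2 rose without rescue replicate 2 and 2 without rescue replicate 3.

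Other lists held few calls, beside the 3.92% of all tested genes that rose. Of 17 interferon-stimulated genes, ISG20 (0.81) and MX1 (0.55) rose. In the ribosome biogenesis list of 34, the only rise was ODC1 (0.28), which encodes an enzyme of polyamine synthesis. None of these 3 passed without control replicate 1 or without control replicate 2. None of 12 MHC class I presentation genes passed, nor any of 31 clathrin endocytosis genes, whose medians were 0.10 and 0.06. Without control replicate 3, 4 of the MHC class I genes rose, and 3 did without rescue replicate 1. Of the neuroendocrine markers tested, SYP was at 0.01, SYT1 at -0.03 and ENO2 at 0.40, none of which passed, and INSM1 had 0 counts in all 6 libraries. LAMB3 was the basal gene that passed (1.46, adjusted p = 0.0239), but not without control replicate 1, control replicate 2 or rescue replicate 3, and KRT15 was at 0.45 (adjusted p = 0.168).

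The libraries labelled knockdown are given beside the largest changes and some list members as values only, since both comparisons would share the controls. On one scale over all 9 libraries, EGR1 was at 0.135, 0.353 and 1.20 CPM and MMP10 at 0.942, 1.06 and 1.52 CPM in knockdown-labelled libraries 1, 2 and 3, near the controls. CGA was at 1.35, 1.77 and 0.109 CPM, MAGEC2 at 2.83, 4.41 and 0 CPM, and CXCL13 at 14.7, 12 and 0.544 CPM. Knockdown-labelled libraries 1 and 2 thus lay above the highest control for these 3 genes, and for CXCL13 above every rescue library, while library 3 was lower. ALOX15 was at 0, 0.265 and 2.61 CPM and CA10 at 1.88, 1.68 and 12.5 CPM. MDK was at 711, 642 and 722 CPM, between the rescue and the control libraries. Among list members that rose in rescue, DCN was at 9.29, 13.1 and 5.44 CPM, with the highest control at 3.47 CPM. CDH6 was at 14.5, 16.1 and 12.1 CPM, with the highest control at 7.57 CPM. LUM, ROBO2, FERMT2, PTN and FN1 also lay above every control in each knockdown-labelled library. In none of these libraries did AKAP12, LRP1 or MAP3K14 lie above every control.

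**Figure D5:**
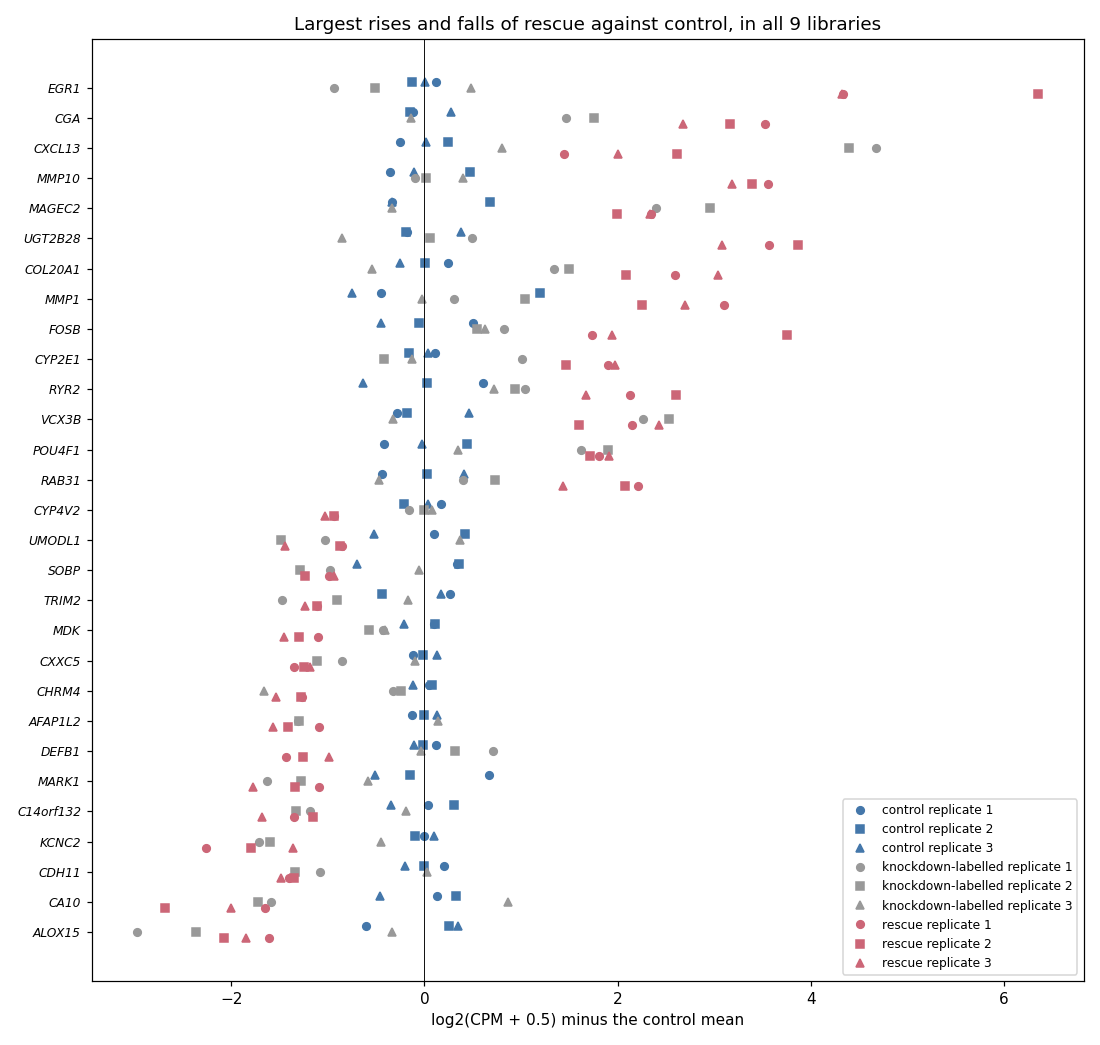
Log2(CPM + 0.5) minus the control mean (horizontal axis) for 14 of the 15 largest rises and the 15 largest falls, in the control, knockdown-labelled and rescue libraries, 1 symbol a library. EGR1, MMP10 and UGT2B28 are high in the rescue libraries alone among these 9, whereas for CXCL13, MAGEC2 and ALOX15 knockdown-labelled replicates 1 and 2 lie with or beyond the rescue libraries.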

How the data were processed

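Total RNA of 6 LAPC4 libraries was compared (3 rescue, 3 control). The authors deposited raw counts of reads for each gene, as whole numbers; the submitters' processing notes name FastQC, cutadapt, STAR, HTSeq and hg38, without versions, annotation or strand setting. Each file held 60325 gene rows; rows without a gene stayed out (46.3% to 48.7% of all counts lay on no feature). The test was the quasi-likelihood F test of edgeR 4.0.16 (R 4.3.3; filterByExpr with a minimum count of 10, TMM, 4 residual degrees of freedom), and genes passed where p, adjusted by Benjamini-Hochberg over all tested genes, was under 0.05. An SE is the absolute log2 change over the root of F. The fit was tested on simulated counts. CPM are per 1000000 counts, scaled by TMM; depth limits precision for genes of few reads, and the counting interval covers counting error only. Alternatives were DESeq2 1.42.0, limma 3.58.1 (voom), other scalings and filters, all 9 libraries, a replicate block and each library left out.

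The members, the 35 gene lists and the naming rule were chosen with earlier results of these data known. Named were UGT2B28, the 15 largest protein-coding rises and falls among genes that passed, with no overlap between groups and a higher mean of 2 CPM or more, members of described lists that passed or had the 3 smallest p, and members of the marker, hormone, midkine and metalloproteinase lists; antisense genes and genes with over 50% exon overlap were not. MKI67, COL1A1 and COL1A2 and the untested genes were given after their values were seen. Types and positions come from GENCODE 29 (92.4% of rows matched 1 gene) and promoters from RefSeq; a comparison of proteins is not used here, and a few named genes are not reported here. Same-numbered libraries deviated with correlations of 0.083, -0.036 and 0.056, and differently numbered ones with -0.157 to 0.0997. With 3 libraries a group, these values cannot decide whether the numbers pair libraries, and the labels do not say.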

Additional observations from a re-analysis of the deposited data

How the results depend on the processing

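Against 962 genes (642 higher, 320 lower), 1576 passed without a filter on low counts (1044 and 532), 25 with all 9 libraries in the fit (24 and 1), 322 at an adjusted p under 0.01 (257 and 65) and 242 with at least a 2-fold change (199 and 43). Leaving out each library in turn gave 274 to 1302 genes, 219 to 875 higher and 55 to 427 lower. The count was 547 without rescue replicate 2 (400 and 147). The cause of these shifts was not tested, except that stricter thresholds pass fewer genes by construction. Other fits kept the counts within 1.5 times: 981 with DESeq2 size factors, 996 without scaling factors, 1013 with the DESeq2 test, 906 with voom and 962 with a filter of 1 CPM. Without scaling factors 75% of the calls were higher (747 and 249), against 66.7%. With the replicate number as a block, 1183 genes passed (813 and 370), 928 of them shared with the 962, and UGT2B28 stood at 3.59. Whether the numbers pair libraries is not known. UGT2B28 stayed called in all alternatives run, from 3.42 to 3.85. No named gene that passed changed direction in any alternative run. List medians changed sign in at least 1 alternative for cadherins, neuroendocrine, leukocyte and endothelial, p53 and steroid enzyme lists, but not under another scaling. Of the 30 largest changes, 25 missed the threshold with all 9 libraries in the fit, while UGT2B28, EGR1, CGA, MMP10 and MDK did not. List counts shrank in that fit too. In it, 1 of 21 immediate early factors, 0 of 31 androgen-induced genes and 0 of 21 heat shock chaperones rose. Of the 48 replication and 41 mitosis genes tested, 0 fell. Genes under 1 CPM rest on few reads a library, which limits how well their levels are known.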

Other observations

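Some genes that changed lie beside each other; these pairs were chosen after their values were seen. MMP10 and MMP1 lie 9291 bases apart on chromosome 11 with log2 fold changes of 3.82 and 3.24, and the processed pseudogene WTAPP1, which spans MMP10, was at 3.27 (adjusted p = 0.00472). LUM and DCN lie 28652 bases apart on chromosome 12. The X-linked VCX (2.23) and VCX2 (1.88) rose beside VCX3B, with near-identical sequences that may share reads.

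Further genes outside the lists, also chosen after their values were seen, were among those with the smallest p. WNT5A, which encodes a noncanonical WNT ligand, fell from 172, 170 and 156 CPM to 78.9, 85.9 and 62.0 CPM (log2 fold change -1.13, SE 0.107, adjusted p = 4.10e-05). VCAN, which encodes the large proteoglycan versican, fell from 63.0, 57.7 and 39.5 CPM to 26.8, 28.4 and 19.2 CPM (-1.10, SE 0.17, adjusted p = 0.00211), while the small proteoglycan genes DCN and LUM rose. PITHD1 fell from 127, 110 and 112 CPM to 55.7, 52.3 and 64.6 CPM (-1.02, SE 0.0988, adjusted p = 4.90e-05). CD55, a complement regulator at the cell surface, rose by 1.15 and LAMC1, a laminin subunit gene, by 1.01. The groups did not overlap for these 5 genes, which is no separate support, as they were picked with their values known.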
